A study of Mus musculus with 36 samples.

Results

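The genes described here are 10 genes of the p53 pathway and of the cell cycle inhibitors. Some of them, such as Trp53 and Cdkn1a, are known barriers to reprogramming. They are Trp53, Mdm2, Cdkn1a, Cdkn2a, Cdkn2b, Ccng1, Zmat3, Trp53inp1, Bbc3 and Bax. They were chosen by symbol for their known roles, with earlier results of these data known, and all 10 were found among the 21442 genes of the count table. Each of the 10 had enough counts to be tested in every comparison.

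p53, the product of Trp53, is a transcription factor that is stabilised by DNA damage and by oncogenes such as Myc, and it raises transcription of genes that stop the cell cycle or start apoptosis. Mdm2 is a ubiquitin ligase that marks p53 for degradation and is itself a p53 target, so that p53 and Mdm2 form a feedback loop. The products p21 of Cdkn1a, p16Ink4a of Cdkn2a and p15Ink4b of Cdkn2b block the kinases that drive cells into S phase, while p19Arf, also from Cdkn2a, acts on Mdm2, and in fibroblasts these genes are known for cell cycle arrest and senescence.

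The study read mRNA by sequencing in 36 mouse libraries, 3 for each of 6 stages and 2 genotypes (12 groups), WT and KO of Zfp266, a gene for a KRAB zinc finger protein. The comparisons ask what loss of Zfp266 does to expression at each stage of reprogramming to induced pluripotent stem cells (iPSCs), and how expression moves from stage to stage. All groups, embryonic stem cells (ESCs) included, are Cas9 TNG MKOS cells, which carry Cas9, a Nanog-GFP-ires-Puro reporter and, in the Sp3 locus, a doxycycline-inducible cassette of Myc, Klf4, Oct4 and Sox2 followed by mOrange.

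The MEF groups were mouse embryonic fibroblasts from E12.5 chimeric embryos, labelled strain 129, transduced with lentivirus carrying a non-targeting guide (WT) or a Zfp266 guide (KO) and grown without doxycycline. The D3, D5 and D7 groups were such cells mixed with MEFs of strain 129 that lack the cassette, given doxycycline and vitamin C, and sorted for mOrange after 3, 5 or 7 days. In the MEF, D3, D5 and D7 groups KO therefore means a population of edited cells and not a clone. The iPS groups were 3 separate Nanog-GFP clones per genotype, grown in puromycin without doxycycline. The ESC WT group was 3 samples, taken here as Clone J, the Cas9 TNG MKOS ESC clone of the study, descended from E14Tg2a. The ESC KO group was 3 libraries of single-cell clones made from Clone J by plasmid transfection. Whether each of them was a separate clone was not stated. The stages thus differ in culture, sorting and cloning as well as in time, and these cannot be told apart in the steps between stages.

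Total counts ranged from 19224103 to 39610939 per library. Zfp266 itself had 2019 ± 169.8 normalised read counts in iPS KO against 2647 ± 151 in iPS WT (mean ± SD, n = 3, as for all such values here), and it was called higher, not lower, in KO at D3 at 1909.9 ± 122 against 1531 ± 99.91. Counts summed over a gene do not read a small edit, so these levels do not check the KO label. Of 6 fibroblast markers, each was present in MEFs, and their summed level was 585537 to 643463 normalised counts per MEF library. Of 7 pluripotency markers, the summed level was 19.7 to 30.8 per MEF library and 116280 to 132286 per ESC library, with Utf1 and Dppa4 at 0 in each MEF library. Of 8 markers of blood, endothelial, muscle and endoderm cells, Myod1 had no values, and the remaining 7 summed to 3797 to 7577 per MEF library and to at most 650.3 per library at the other stages. The 3 epithelial markers summed to 2.12 to 162 per MEF library and to 6381 to 23515 at the later stages.

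A pair of libraries stood apart from their groups in the genes described here. The library MEF KO replicate 3 had the lowest value of its group in 8 of 10 members, Mdm2 standing at 0.512 and Cdkn2b at 0.368 of the mean of the other 2 libraries. It was also the lowest of its group in 49.3% of 14637 genes with a mean of at least 50 normalised counts. Among p53 targets it was the lowest in 5 of 7 members and in 23 of 28 further genes. The library iPS WT replicate 1 had the lowest value of its group in 8 of 10 members and in all 7 members that are p53 targets, with Ccng1 at 0.497, Trp53inp1 at 0.483 and Mdm2 at 0.576 of the mean of the other 2 clones. In Trp53 itself it stood at 1.03 and in Cdkn2a it was the highest, at 1.92 of that mean. It was the lowest of its group in 23 of 28 further p53 targets and in 34.4% of the 14637 genes. Where leaving out either library changed the call of a member or moved a called value by over 1.5 times, both values are given.

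**Figure D1:**
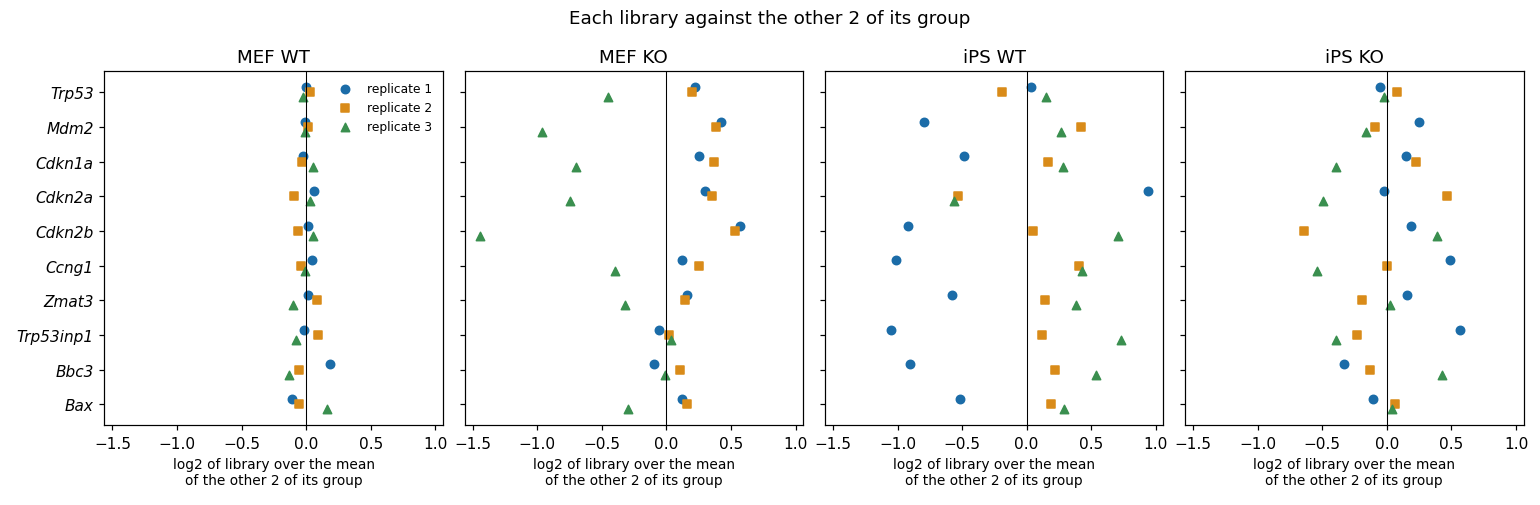
Each point is 1 library, plotted by the log2 of its normalised count over the mean of the other 2 libraries of its group, for the 10 members (rows) in the MEF and iPS groups (panels). MEF KO replicate 3 (triangles) lies left of 0 in 9 of 10 members, iPS WT replicate 1 (circles) lies left of 0 in 8, and the MEF WT libraries lie close to 0.

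Within the WT libraries most calls of members fell in the steps from MEF to D3 and from D7 to iPS, in which most genes of the table were called as well. A member was called where the false discovery rate (FDR), adjusted over all genes tested by DESeq2's Wald test, was under 0.05. From MEF to D3, 0 members were called higher and 8 lower, where 33.8% of all genes tested were called higher and 37.1% lower. From D3 to D5, 2 were called higher and 0 lower, against 12.4% and 12.7% of all genes. From D5 to D7, 1 was called higher and 1 lower, against 13.5% and 10.7%. From D7 to iPS, 3 were called higher and 5 lower, against 35.8% and 37.7%. Between iPS and ESC, 0 were called by DESeq2 or by edgeR and 2 (Bax and Trp53inp1) had an unadjusted p under 0.05 (both were called higher in ESC without iPS WT replicate 3, at 0.31 and 0.63), against 1.09% and 2.11% of all genes called higher and lower in ESC. Some members below are also given in fits of only the groups compared. Those fits called 70.9% of all genes from MEF to D3, 32.1% from D3 to D5 and 28.4% from D5 to D7. From D7 to iPS they called 65.3%. Consecutive steps share a group, so that their fold changes are not independent of each other. In bulk RNA, fewer cells that express a gene and less of its RNA per cell cannot be told apart.

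**Figure D2:**
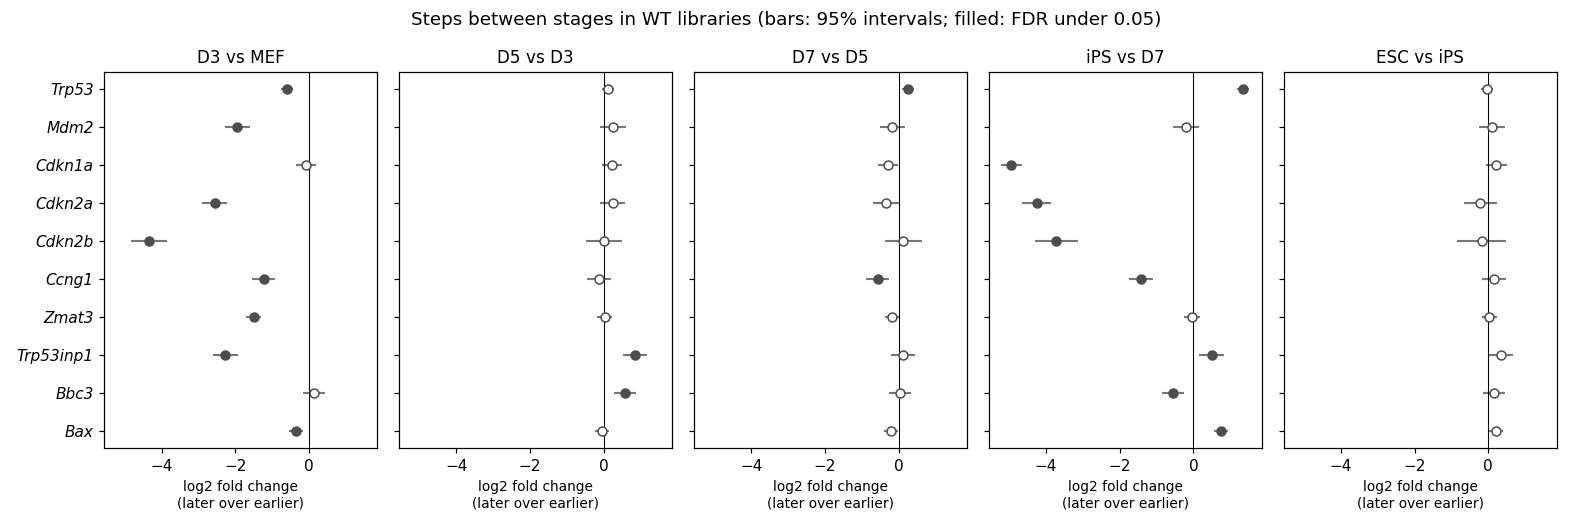
The log2 fold change of each member (rows) in each of the 5 steps between WT groups (panels), with 95% intervals and filled points where the FDR was under 0.05. Most filled points lie in the step from MEF to D3, all to the left of 0, and in the step from D7 to iPS, where Cdkn1a, Cdkn2a and Cdkn2b lie farthest left.

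The promoters of 5 members hold the unit of 10 bases that, as a pair, makes up the response element p53 binds. RefSeq promoter windows (GRCm38.p6; all positions here are on GRCm38) were found for 8 of the 10 members, 12 windows in all, and were searched over the 250 bases before the start for an exact match to the consensus unit, which reads the same on both strands. It was found in 5 of the 12 windows and in 7.13% of 32851 windows of all genes. A pair of units with a spacer of 0 to 13 bases was found in Cdkn1a only among the members, and in 0.0639% of all windows. The matches are shown, with the unit in capitals and 20 bases on each side, because they mark which members carry the unit near the start. A match is a description of sequence and not a measured p53 site. The windows of Cdkn2a, Cdkn2b and Bbc3 held no exact match, which says only that these letters are not there, and no window was found for Trp53inp1 and Zmat3. The pair in Cdkn1a has a spacer of 12 bases. The 10 bases directly after its second unit differ from the consensus only in their first base, and the exact search left them unmarked. The pair shown need therefore not be the pair that p53 binds.
Trp53, chr11:69580264-69580313, plus strand: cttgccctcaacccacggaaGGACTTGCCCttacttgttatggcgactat
Mdm2, chr10:117710915-117710964, minus strand: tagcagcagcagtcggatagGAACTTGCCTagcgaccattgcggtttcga
Cdkn1a, chr17:29090886-29090957, plus strand: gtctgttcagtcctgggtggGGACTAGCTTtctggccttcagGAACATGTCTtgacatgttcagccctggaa
Ccng1, chr11:40755442-40755491, minus strand: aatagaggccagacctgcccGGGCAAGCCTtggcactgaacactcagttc
Bax, chr7:45467070-45467119, minus strand: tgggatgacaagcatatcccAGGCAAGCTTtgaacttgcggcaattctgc
From D7 to iPS WT those 5 members did not share 1 direction: Trp53 and Bax were called higher, Cdkn1a and Ccng1 lower, and Mdm2 was not called. From MEF to D3 WT, Trp53, Mdm2, Ccng1 and Bax were called lower, and Cdkn1a was not called.

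Trp53 (ENSMUSG00000059552, chr11:69580359-69591873, plus strand) had 4397, 4459 and 4355 normalised counts in MEF WT. It had 2807, 3008 and 2841 in D3 WT, every value below those of the MEFs, and the log2 fold change was -0.61 ± 0.083 (SE, FDR 7.77e-13). The step from D3 to D5 was not called (log2 fold change 0.11, FDR 0.389). Values of 3178, 3030.3 and 3110.4 in D5 WT were followed by 3635, 3659 and 3815 in D7 WT, groups that did not overlap, with a log2 fold change of 0.25 ± 0.083 (FDR 0.0135). That call was lost without D5 WT replicate 2 (FDR 0.0567) or without D7 WT replicate 3 (FDR 0.063). The iPS WT clones had 9626, 8639 and 10122, every clone above every D7 WT library, and the step was 1.35 ± 0.082 on the log2 scale (FDR 7.53e-60). ESC WT had 8934, 9224 and 9594, within the range of the iPSC clones. The transcript of the gene for p53 was thus most abundant in the pluripotent cells and least abundant at D3.

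Mdm2 (ENSMUSG00000020184, chr10:117688875-117710758, minus strand) fell on entry into reprogramming. The MEF WT libraries had 14312, 14451 and 14279.8, and the D3 WT libraries had 4319, 3354 and 3514, 3.85 times lower, with a log2 fold change of -1.94 ± 0.18 (FDR 1.67e-27). No later step passed the test in the fit of all libraries, and WT group means from D3 on lay between 3402 in iPS WT and 4416 in D5 WT. Trp53 rose 2.56-fold from D7 to iPS WT, while Mdm2 had a log2 fold change of -0.21 in that step, with a 95% interval of -0.56 to 0.14. In a fit of only the groups compared, Mdm2 was called higher from D3 to D5 (0.26, FDR 0.0133) and lower from D5 to D7 (-0.17, FDR 0.0262).

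Cdkn1a (ENSMUSG00000023067, chr17:29090976-29100727, plus strand), the inhibitor that p53 induces, stayed close to its fibroblast level through the doxycycline phase and was far lower in the iPSC clones. It had 19463, 19392 and 20147 in MEF WT, 18494, 17720.1 and 19623 in D3 WT and 17579, 17164 and 19152 in D7 WT. The D3 libraries overlapped with the MEFs, and the log2 fold change was -0.08, with a 95% interval of -0.35 to 0.19. D5 WT, at 21489, 21421 and 22447, lay above both neighbours, but neither step passed the test (FDR 0.246 and 0.137). When only the libraries of the groups compared were fitted, both did, at log2 fold changes of 0.24 (FDR 0.000376) and -0.29 (FDR 3.46e-05). The iPS WT clones had 464, 632 and 666, 30.6 times lower than D7 WT, and the log2 fold change of -4.94 ± 0.14 was the largest of the 10 members in that step (FDR 4.84e-259). In ESC WT the values were 697, 669 and 678, just above those of the iPSC clones, without passing the test (FDR 0.436). Exons of Cdkn1a share 273 bases (7.68%) with an antisense gene, AC167363.2, which had a mean of 21.5 normalised counts.

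Cdkn2a (ENSMUSG00000044303, chr4:89274471-89294653, minus strand) encodes a pair of unrelated proteins from first exons that lie apart. The p16Ink4a transcript (Cdkn2a-201) starts at chr4:89281986-89282192 and the p19Arf transcript (Cdkn2a-202) at chr4:89294334-89294653, and both go on into the same second exon at chr4:89276645-89276985, on the minus strand. p16Ink4a inhibits Cdk4 and Cdk6, while p19Arf binds Mdm2 and so protects p53. The junctions are shown because the count table has a single value for both proteins: the last 30 bases of each first exon, in lower case, differ, and the first 30 bases of exon 2, in capitals, are shared (GRCm38, GENCODE).
p16Ink4a transcript: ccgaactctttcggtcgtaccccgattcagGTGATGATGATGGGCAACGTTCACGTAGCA
p19Arf transcript: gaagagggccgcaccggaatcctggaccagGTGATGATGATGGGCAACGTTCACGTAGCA
The values below sum both transcripts, and how each of them moved cannot be told apart.

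Cdkn2a fell at both ends of the course. It had 7984, 7429 and 7860.0 in MEF WT and 1409, 1265 and 1273 in D3 WT, 5.89 times lower (log2 fold change -2.56 ± 0.18, FDR 3.89e-47). Through D7 it lay between 1103 and 1767 in the WT libraries, and neither step was called in the fit of all libraries. In a fit of only the groups compared both were, at 0.25 (FDR 0.0307) from D3 to D5 and -0.35 (FDR 0.00562) from D5 to D7. In iPS WT it had 94.995, 49.9 and 49.2, 18.9 times below D7 WT (log2 fold change -4.24 ± 0.20, FDR 1.02e-97). The ESC WT samples had 42.2, 62.8 and 62.5, and the fall did not rest on iPS WT replicate 1, the highest of the clones.

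Cdkn2b (ENSMUSG00000073802, chr4:89306299-89311039, minus strand), the neighbour of Cdkn2a on chromosome 4 and a further inhibitor of Cdk4 and Cdk6, fell furthest of the 10 members from MEF to D3. It had 6395, 6159.9 and 6495 in MEF WT and 369, 269 and 297 in D3 WT, 20.4 times lower (log2 fold change -4.35 ± 0.25, FDR 7.84e-67). The later WT libraries held 287 to 330.0 at D5 and 275 to 389.7 at D7. In iPS WT it had 16.4, 26.7 and 35.3, 13.1 times below D7 WT (log2 fold change -3.71 ± 0.29, FDR 5.57e-36). A library with 3 reads of a gene would hold 2.31 to 5.22 normalised counts, so Cdkn2b in the pluripotent cells was low but above that floor.

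Ccng1 (ENSMUSG00000020326, chr11:40748552-40755311, minus strand) encodes cyclin G1, a p53 target that recruits a phosphatase to Mdm2. It fell in 3 of the 5 steps, and the step from D3 to D5 was not called. It had 46364, 44595 and 45226 in MEF WT and 19268, 18770.2 and 19933 in D3 WT (log2 fold change -1.23 ± 0.16, FDR 1.1e-13). D5 WT had 17897, 17718 and 17108 and D7 WT 11407, 12063 and 12101, groups that did not overlap (log2 fold change -0.57 ± 0.16, FDR 0.00382). The iPS WT clones had 2638, 5279.6 and 5338, replicate 1 far below the other clones, and stood 2.68 times below D7 WT (log2 fold change -1.42, FDR 9.84e-18). Without replicate 1 the log2 fold change was -1.16. Per kilobase of exon, Ccng1 was the most abundant member in MEF WT, at 12926 ± 255 normalised counts, ahead of Cdkn2a at 6619 ± 248.6.

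Zmat3 (ENSMUSG00000027663, chr3:32334792-32366014, minus strand), a p53 target for an RNA-binding zinc finger protein, changed in a single step. MEF WT had 11569, 11944 and 10963 and D3 WT 3889, 4060.2 and 4258, 2.82 times lower (log2 fold change -1.50 ± 0.11, FDR 2.83e-44). From D3 to ESC the WT group means lay between 3585 and 4136, and no step was called.

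Trp53inp1 (ENSMUSG00000028211, chr4:11156431-11174379, plus strand), a p53 target that acts in apoptosis and autophagy, fell and then came back. The MEF WT libraries had 8136, 8548 and 7887 and the D3 WT libraries 1875, 1523 and 1696 (log2 fold change -2.27 ± 0.17, FDR 1.64e-39). D5 WT had 2992, 3092 and 3077, above every D3 value (log2 fold change 0.85 ± 0.17, FDR 1.23e-05). Trp53inp1 spread in the iPSC clones of WT from 2735 to 6374 and overlapped with D7 WT at 3349, 3538 and 3088. Their step was 0.50 ± 0.17 (FDR 0.00558), and it was 0.77 without iPS WT replicate 1. The call was lost without iPS WT replicate 3, at 0.21 (FDR 0.234), and in a fit of only the groups compared (FDR 0.105). ESC WT had 5803, 6121 and 5906.

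Bbc3 (ENSMUSG00000002083, chr7:16308393-16318205, plus strand) encodes Puma and Bax (ENSMUSG00000003873, chr7:45461697-45466898, minus strand) the effector that opens the mitochondrial membrane, so that both act in the apoptotic arm of the pathway. Bbc3 was not called from MEF to D3 in the fit of all libraries, at 842, 754 and 727 against 805, 827 and 919, but in a fit of only the groups compared it was called higher (0.23, FDR 0.0325). It rose to 1262, 1189 and 1351 in D5 WT, above every D3 value (log2 fold change 0.58 ± 0.15, FDR 0.0013), and was lower in the iPS WT clones, at 559, 974 and 1112, than in D7 WT, at 1358, 1194 and 1334 (log2 fold change -0.56 ± 0.15, FDR 0.000447). Without iPS WT replicate 1 the log2 fold change was -0.31, and it still passed the test. Bax moved the other way in that step. It had 4271, 4392 and 4835 in MEF WT and 3359, 3514 and 3688 in D3 WT, a log2 fold change of -0.35 ± 0.095 (FDR 0.000346). From D5 to D7 it was called lower only in a fit of the groups compared (-0.21, FDR 0.0104). The iPS WT clones, at 3887, 5452 and 5692, lay above every D7 WT value of 3012, 2899.9 and 2999 (log2 fold change 0.75 ± 0.095, FDR 6.83e-15). Bax shares 192 exon bases (12.2%) with Gm45808 on the same strand, a gene outside the count table.

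The order of the members per kilobase of exon differed between MEF WT, where Ccng1, Cdkn2a and Cdkn1a, at 5535 ± 117, stood highest, and the later stages. In D7 WT, Cdkn1a led at 5056 ± 295 normalised counts per kilobase, with Ccng1 at 3376 ± 111 and Trp53 at 915 ± 24.1. In ESC WT, Bax led at 3663 ± 186, Trp53 followed at 2287 ± 81.8, and Cdkn1a, at 192 ± 3.98, Cdkn2a, at 47.6 ± 10.1, and Cdkn2b, at 16.5 ± 1.41, were the lowest of the 10.

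**Figure D3:**
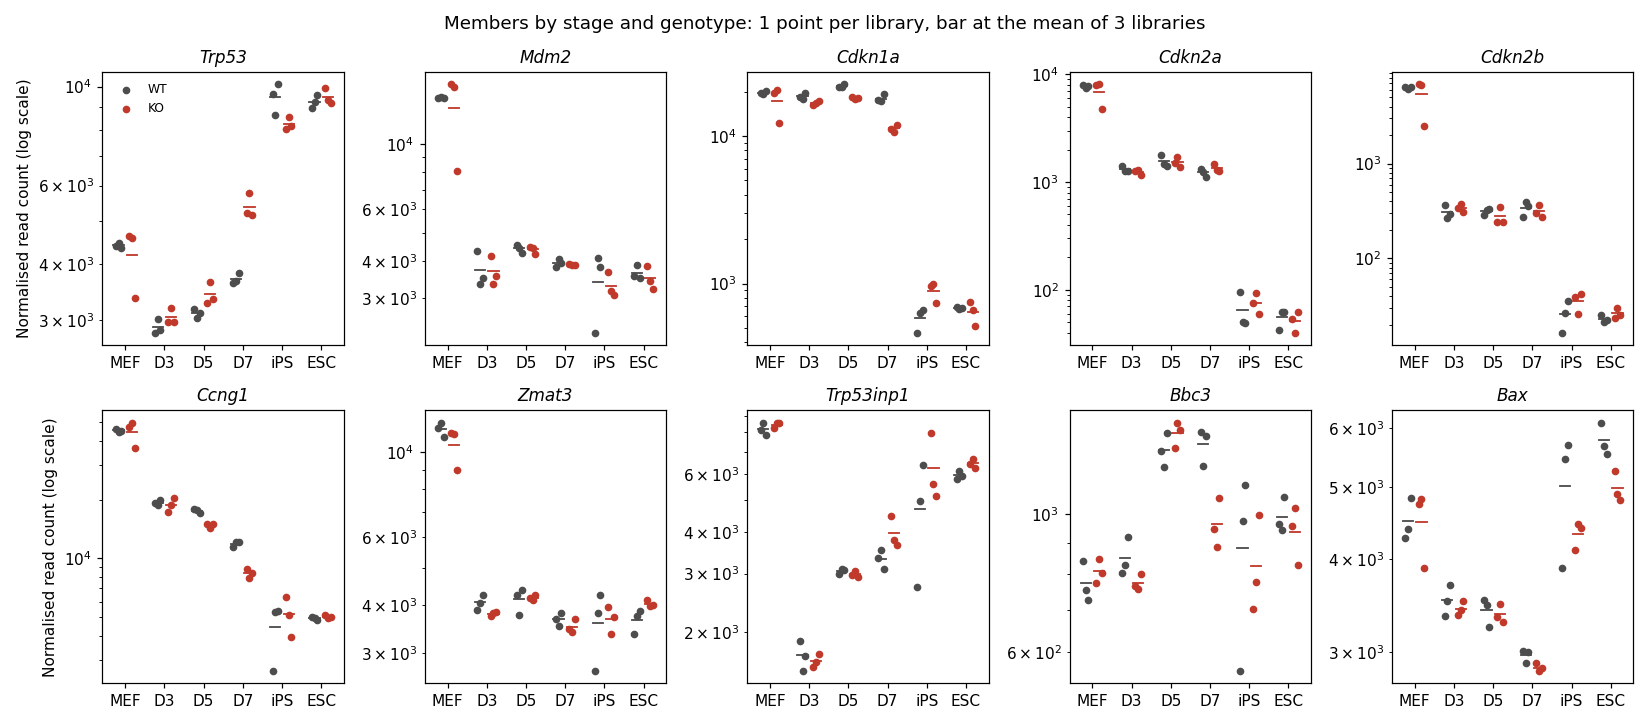
Normalised read counts (log axis) of the 10 members in each of the 36 libraries by stage, WT in grey and KO in red, with a bar at the mean of 3 libraries. The 3 cell cycle inhibitors Cdkn1a, Cdkn2a and Cdkn2b fall by more than 10-fold between D7 and iPS WT, Trp53 and Bax rise, and MEF KO replicate 3 and iPS WT replicate 1 lie below their groups in most panels.

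The KO was compared with WT at each stage. In MEFs and at D3, 0 members were called higher or lower by DESeq2 or by edgeR, and 0 had an unadjusted p under 0.05. Of all genes tested, 0.0285% were called higher and 0.0143% lower in MEF KO, and 0.374% higher and 0.119% lower in D3 KO. In MEFs the fold changes of the members lay between -0.24 for Cdkn2b and 0.064 for Bbc3 on the log2 scale. Without MEF KO replicate 3 the count of called members was 0 as well, and the values of the members lay between -0.039 for Zmat3 and 0.14 for Mdm2, Cdkn2b having 0.10. With TMM size factors (the trimmed mean of M values), 8 genes in all were called higher and 2 lower in MEF KO, in place of 6 and 3. The interval for Trp53 was -0.24 to 0.089, and that for Cdkn2b, -0.72 to 0.24, was wide, the MEF KO libraries having 6864, 6762 and 2504 normalised counts. At D3 the largest difference was that of Cdkn1a, with 16136, 16884 and 17262 in KO and 18494, 17720.1 and 19623 in WT, which did not overlap (log2 fold change -0.15, interval -0.42 to 0.12). Bbc3 and Zmat3 did not overlap at D3 either. The share of all genes without overlap was not computed at any stage. With the replicate number as a block within each stage, 129 genes in place of 79 were called at D3, and 0 members.

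At D5, 0 members were called in the fit of all libraries, by DESeq2 or edgeR, and 0 had an unadjusted p under 0.05, where 4.72% of all genes were called higher and 2.43% lower. Cdkn1a did not overlap between the genotypes, with 18324, 17879 and 18211 in KO and 21489, 21421 and 22447 in WT (log2 fold change -0.26 ± 0.14, FDR 0.298). Nor did Ccng1, with 15035, 14376 and 14993 in KO and 17897, 17718 and 17108 in WT (log2 fold change -0.25 ± 0.16, FDR 0.449). Trp53 was higher in each KO library, at 3271, 3653 and 3335 against 3178, 3030.3 and 3110.4 (log2 fold change 0.14, FDR 0.392). When the 6 D5 libraries were fitted alone, Cdkn1a was called lower at -0.26 (FDR 1.07e-05) and Ccng1 at -0.24 (FDR 0.000105), where 15.4% of all genes were called in that fit. The fit of all 36 libraries shares 1 estimate of each gene's spread over all groups, and the fit of 6 uses the D5 libraries only. Why the calls differ between these fits was not tested.

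At D7, 4 members were called. Trp53 was called higher and Cdkn1a, Ccng1 and Bbc3 lower, so that 1 member was higher and 3 were lower, where 13.3% of all genes were called higher and 16.1% lower. Trp53 had 5199, 5781 and 5147 in D7 KO against 3635, 3659 and 3815 in D7 WT. Every KO value lay above every WT value, and the fitted difference was 1.45-fold, with a log2 fold change of 0.54 ± 0.082 (FDR 2.4e-09). Cdkn1a had 11227, 10666 and 11974 in D7 KO against 17579, 17164 and 19152 in D7 WT, and here every KO value lay below every WT value, the fitted difference being 1.59-fold (log2 fold change -0.67 ± 0.14, FDR 1.89e-05). Both calls held in all 12 alternative fits, 6 of which left out a library.

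Ccng1 had 8837, 7937 and 8366 in D7 KO against 11407, 12063 and 12101 in D7 WT, without overlap, 1.41 times lower (log2 fold change -0.50 ± 0.16, FDR 0.0101). The call was lost without D7 KO replicate 2 (-0.46, FDR 0.0519). Bbc3 had 946, 886 and 1061 against 1358, 1194 and 1334, also without overlap (log2 fold change -0.43 ± 0.15, FDR 0.0207). Its call was lost when any of 4 libraries was left out, D7 WT replicates 1 and 3 and D7 KO replicates 1 and 2, with FDRs of 0.0641 to 0.106.

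The other 6 members were not called at D7. Mdm2 had 3899, 3885 and 3872 in D7 KO against 3813, 4059 and 3929 in D7 WT, a log2 fold change of -0.018 with a 95% interval of -0.36 to 0.33. Cdkn2a had a log2 fold change of 0.13 (interval -0.21 to 0.48) and Cdkn2b of -0.12 (interval -0.62 to 0.37). Zmat3 had -0.065 (interval -0.27 to 0.14) and Bax -0.055 (interval -0.24 to 0.13). Trp53inp1 had 4469, 3789 and 3646 in KO against 3349, 3538 and 3088 in WT, without overlap, at 0.25 ± 0.17 (FDR 0.277), and it was called higher when the 6 D7 libraries were fitted alone (0.30, FDR 0.00194), a fit that called 33.3% of all genes. Of the 7 p53 targets among the members, Cdkn1a, Ccng1 and Bbc3 were thus called lower, and Mdm2, Zmat3, Trp53inp1 and Bax were not called.

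Markers of cell identity moved with these calls. All 7 pluripotency markers were called higher in D7 KO, their summed level being 23953 to 31745 per KO library and 5069 to 8939 per WT library. Of 6 fibroblast markers, Col1a1 and Thy1 were called lower and Fn1 higher in D7 KO, and the summed level of the 6 was 21424 to 39698 against 32012 to 45072. The epithelial markers summed to 21476 to 22982 against 18072 to 20882, with 0 of 3 called by DESeq2. Of 7 markers of other cells 1 was called lower. Their part in the values of the members was not tested. Set side by side, the members called at D7 had these differences in the step from D7 to iPS WT, a comparison that shares the D7 WT libraries: Trp53 1.35, Cdkn1a -4.94, Ccng1 -1.42 and Bbc3 -0.56 on the log2 scale. The members not called at D7 had, in the same step, Cdkn2a -4.24, Cdkn2b -3.71, Bax 0.75, Trp53inp1 0.50, Mdm2 -0.21 and Zmat3 -0.036. Both comparisons are set against the same D7 WT libraries, so their signs are not independent.

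**Figure D4:**
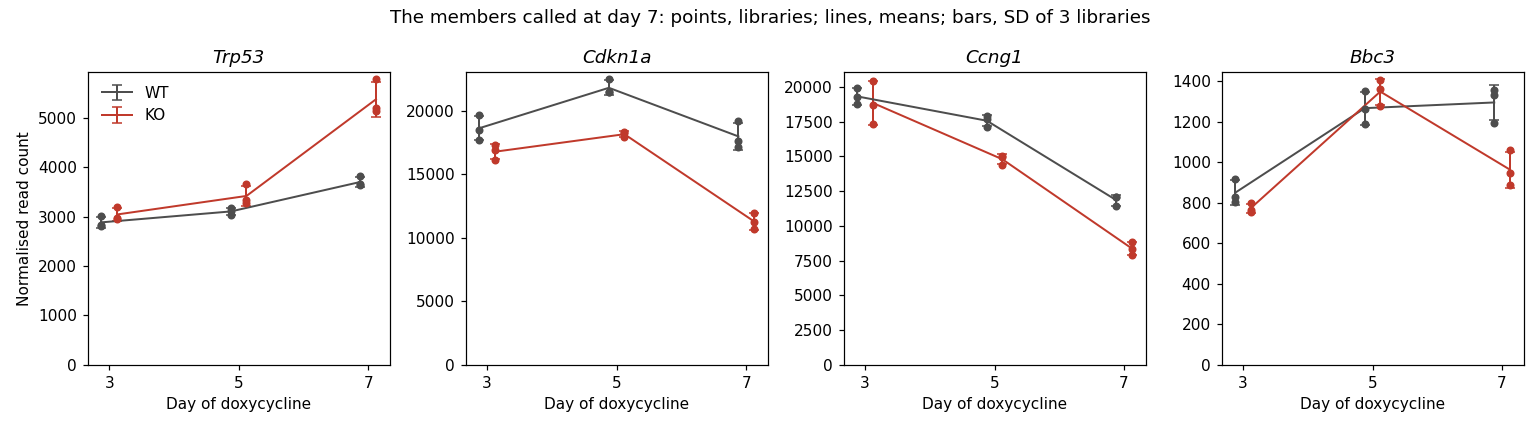
Normalised read counts of the 4 members called at D7 by day of doxycycline, WT in grey and KO in red, with points for libraries, lines through the means and bars for the SD of 3 libraries. Trp53 in KO stands above WT at day 7, at a mean of 5376 against 3703, while Cdkn1a, Ccng1 and Bbc3 in KO stand below WT.

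In the iPSC clones 1 member was called higher in KO and 0 lower, where 9.72% of all genes were called higher and 6.63% lower. Cdkn1a had 956, 991 and 739 in the iPS KO clones against 464, 632 and 666 in the iPS WT clones. Every KO clone lay above every WT clone, at a fitted 1.53-fold, the opposite direction to D7 (log2 fold change 0.61 ± 0.15, FDR 0.000626). The call was lost when the 6 iPS libraries were fitted alone (0.58, FDR 0.0858), a fit that called 3.25% of all genes. Without iPS WT replicate 1 it held at 0.47, and in that fit 3 further members were called: Cdkn2a higher, at 0.62 (FDR 0.0457), Bbc3 lower, at -0.34 (FDR 0.0242), and Bax lower, at -0.36 (FDR 2.47e-05). With that clone, Bax had 4117, 4462 and 4406 in KO against 3887, 5452 and 5692 in WT, which overlapped (log2 fold change -0.21, FDR 0.112).

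Trp53 was lower in each iPS KO clone, at 8034, 8544 and 8171, than in each iPS WT clone, at 9626, 8639 and 10122, but the log2 fold change of -0.20 ± 0.081 did not pass the test (FDR 0.0776). With TMM size factors it did, at FDR 0.0471, and it also did without iPS WT replicate 2, at -0.26 (FDR 0.035). Trp53inp1 spread from 5160.1 to 7964 in the KO clones and was called only without iPS WT replicate 3 (FDR 0.000374) or iPS KO replicate 3 (FDR 0.0292). Ccng1 spread from 3944 to 6360.3, and its log2 fold change of 0.22 had an interval of -0.099 to 0.54. Without iPS WT replicate 1 the values were -0.043 for Ccng1, 0.14 for Trp53inp1, -0.26 for Mdm2 and -0.13 for Zmat3, none of them called. Some genes of the fibroblast marker list also differed between these clones. Of 6, 2 were called higher in KO, Fn1 having 44489.9 ± 2371 against 29284 ± 7487 normalised counts in KO against WT. Fn1 made up most of the sum of the 6, which was 42367 to 47037 per iPS KO library and 20794 to 34797 per iPS WT library. In ESCs, which were never fibroblasts, the 6 summed to 25947 to 32760 per WT library and 36695 to 37781 per KO library. Of 7 markers of other cells, 3 were called higher in iPS KO. The part of these markers in the result was not tested.

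In ESCs 0 members were called by DESeq2 or edgeR, and 1 (Bax) had an unadjusted p under 0.05, where 5.82% of all genes were called higher and 4.29% lower. Cdkn1a had 751, 661 and 516 in KO against 697, 669 and 678 in WT, a log2 fold change of -0.084 with an interval of -0.37 to 0.20. Bax had 5249.6, 4892 and 4797 against 6101, 5683 and 5535, every KO library below every WT library, at -0.21 ± 0.094 (FDR 0.137). It was called lower when the 6 ESC libraries were fitted alone (-0.22, FDR 0.0162), a fit that called 15.7% of all genes. Trp53 had 9916, 9341 and 9208 against 8934, 9224 and 9594, with an interval of -0.12 to 0.20.

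**Figure D5:**
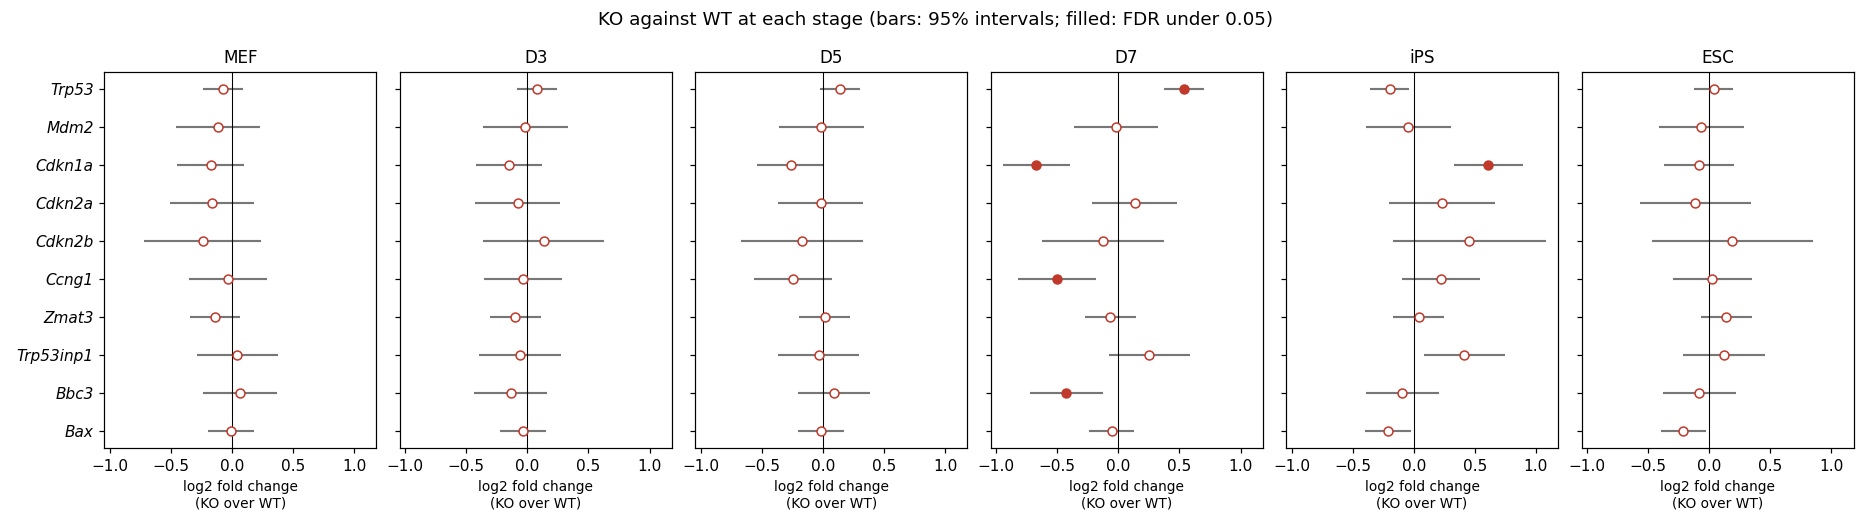
The log2 fold change of KO over WT for each member (rows) at each stage (panels), with 95% intervals and filled points where the FDR was under 0.05. The D7 panel holds 4 filled points, the iPS panel 1, for Cdkn1a, on the other side of 0 from its point at D7, and the other panels none.

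The KO effect of some members differed between stages when the difference itself was tested. From D3 to D7, the KO effect on Trp53 rose by 0.46 ± 0.12 on the log2 scale (FDR 0.00212), the only member called, where 13% of all genes were. For Cdkn1a that difference was -0.52 (FDR 0.0596) and for Ccng1 -0.47 (FDR 0.179), and in a fit of only the groups compared both passed, at -0.48 (FDR 7.38e-07) and -0.42 (FDR 2.39e-05), as did Trp53inp1 at 0.35 (FDR 0.0262), where 22.4% of all genes passed. From D7 to iPS, 3 members were called, where 21.9% of all genes were: Cdkn1a at 1.28 ± 0.20 (FDR 1.6e-08), Ccng1 at 0.72 ± 0.23 (FDR 0.0119) and Trp53 at -0.74 ± 0.12 (FDR 1.73e-08). The Ccng1 call was lost without iPS KO replicate 1 (0.54, FDR 0.0798) and in a fit of only the groups compared (FDR 0.137), and the value was 0.46 without iPS WT replicate 1. In that last fit Bax was called as well (-0.31, FDR 0.0115), and without iPS WT replicate 3 Bbc3 was (0.53, FDR 0.045).

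Between MEF and D3 the KO effects of 0 members differed by DESeq2 or edgeR, and 0 had an unadjusted p under 0.05, where 0.112% of all genes were called. Between ESC and iPS 0 were called, 2 (Trp53 and Cdkn1a) had an unadjusted p under 0.05, and 1.47% of all genes were called. Cdkn1a was the nearest, its KO effect being 0.69 ± 0.21 larger in iPSC clones than in ESCs (FDR 0.0503). That difference passed when any of 4 libraries was left out, iPS WT replicate 2 or 3, iPS KO replicate 3 or ESC KO replicate 1, with FDRs of 0.0061 to 0.0436, and was 0.55 (FDR 0.128) without iPS WT replicate 1.

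The other genes of the pathway were read from lists of known genes, and the shares in brackets are those of all genes called higher and lower. Of 28 p53 targets outside the members, 7 were called higher and 19 lower from MEF to D3 (33.8% and 37.1% of all genes), with a median log2 fold change of -0.88 beside -0.0054 over all genes. Pidd1, which acts in p53-induced cell death, had 239.7 ± 51.9 against 1979.8 ± 158 normalised counts in D3 against MEF WT, and Tigar, a regulator of glycolysis, had 3720.5 ± 126 against 318 ± 34.8. In the step from D7 to iPS WT 6 were called higher and 19 lower (35.8% and 37.7% of all genes), with a median of -0.74 beside 0.014, and Btg2, an antiproliferative gene, had 454 ± 206 against 4758 ± 390.0 in iPS against D7 WT. At D7, 5 of the 28 were called higher and 8 lower in KO (13.3% and 16.1% of all genes), with a median of -0.18 beside -0.045. Fas, a death receptor, had 35.4 ± 7.85 against 115 ± 20.7 in KO against WT and Pml, a nuclear body protein, 2464 ± 265 against 1041 ± 83.6. In the iPSC clones 4 were called higher and 1 lower in KO (9.72% and 6.63% of all genes), Sesn1, a stress-induced inhibitor of mTORC1 signalling, at 0.77 ± 0.14 and Gdf15, a secreted stress factor, at 1.19 ± 0.22 on the log2 scale. In ESCs 2 were called higher and 0 lower (5.82% and 4.29% of all genes), with Gdf15 at 1.45 ± 0.23. In MEFs and at D3, 0 of the 28 were called, and at D5 1 was called higher and 1 (Fas) lower.

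The list of p53 regulators held 21 names, of which 19 had values, and Rfwd2, an older name of Cop1, and Trp63 had none. Of the 19, 10 were called higher and 1 lower in D7 KO (13.3% and 16.1% of all genes), with a median of 0.23 beside -0.045 over all genes. Usp7, the deubiquitinase of Mdm2 and p53, had 7131 ± 493 against 4519.8 ± 54.5 normalised counts in KO against WT, and Chek1, a checkpoint kinase, 1342 ± 60.4 against 876 ± 85.1. In the step from D7 to iPS WT 13 were called higher and 2 lower (35.8% and 37.7% of all genes), and Usp7 again rose, by 1.73 ± 0.05 on the log2 scale. At D5, 4 were called higher and 0 lower in KO (4.72% and 2.43% of all genes). At D3 1 (Chek1) was called higher, in MEFs 0 were called, in the iPSC clones 3 higher and 2 lower, and in ESCs 3 higher and 0 lower.

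The other cell cycle inhibitors were read beside Cdkn1a, Cdkn2a and Cdkn2b. Of 8 such genes, 1 was called higher and 7 lower from MEF to D3 (33.8% and 37.1% of all genes), Cdkn2c (p18Ink4c) at -4.18 ± 0.28 and Cdkn1b (p27) at -3.22 ± 0.23 on the log2 scale. In the step from D7 to iPS WT 4 were called higher and 1 (Rb1) lower (35.8% and 37.7% of all genes), and Cdkn1b rose by 2.36 ± 0.22 where Cdkn1a had -4.94. In D7 KO 3 were called higher and 1 lower (13.3% and 16.1% of all genes), Cdkn1b having 621 ± 84.4 against 309 ± 41.2 normalised counts in KO against WT, while Cdkn1a was called lower. In the other KO comparisons 0 were called in MEFs, at D3 and in ESCs, and Rbl1 was called higher at D5 and in the iPSC clones.

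Of 16 Polycomb proteins and other repressors, some of them known to act on the Cdkn2a locus, 4 were called higher and 11 lower from MEF to D3 (33.8% and 37.1% of all genes), the step in which Cdkn2a and Cdkn2b fell. Ezh2, the methyltransferase of Polycomb repressive complex 2, rose by 1.44 ± 0.074 and Tbx2 had -4.50 ± 0.39 on the log2 scale. From D7 to iPS WT 9 were called higher and 5 lower (35.8% and 37.7% of all genes), with Cbx7, which binds the Polycomb histone mark, at 4.81 ± 0.12. In D7 KO 8 were called higher and 2 lower (13.3% and 16.1% of all genes), with Suz12, a partner of Ezh2, at 1.17 ± 0.061 and Cbx7 at 1.46 ± 0.13, while Cdkn2a had 0.13 and was not called. At D5 4 were called higher in KO, in the iPSC clones 5 higher and 1 lower (9.72% and 6.63% of all genes), in ESCs 3 higher, and in MEFs and at D3 0.

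The genes whose pattern was most like that of a member over the 36 libraries were named by Pearson's r of log2 levels among 14637 genes. For Trp53 they were Msh6 (r = 0.990), a mismatch repair gene, Pdcd7, Psmc3ip, Klf2 and Adnp2, the last of these at 0.982. For Cdkn1a they were Ugt1a6b (0.994), Chp1, Emp3, Tbkbp1 and Zdhhc9 (0.992), and for Cdkn2a Sh3kbp1 (0.994), Wbp1l, Ccl2, Parva and Hoxc6 (0.991). The points share the stages, so that these values describe mainly the differences between fibroblasts, sorted cells and pluripotent cells.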

How the data were processed

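Single-end stranded mRNA libraries were trimmed with Cutadapt, aligned with STAR to GRCm38 and counted with Rsubread by the authors. The annotation release, strand setting, gene filter and dates of library preparation were not given in the sources used here, so preparation batches cannot be told apart from the groups. The deposited counts are whole reads per gene for 21442 genes. The deposited normalised counts (unit: signal) equal the counts over DESeq2 size factors, with a largest relative difference of 6.91e-15. Gene names came from a deposited comparison table, whose fold changes and p-values, like those of the other comparison tables, are the authors' own comparisons and were not used, nor was a batch-corrected log matrix. Total counts were 19224103 to 39610939 per library.

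DESeq2 1.42.0 (R 4.3.3) was fitted to the 36 libraries with 1 term per group and default independent filtering. Wald tests gave 15 comparisons, each adjusted by Benjamini and Hochberg over all genes tested, and the limit on fold change used in the study was not applied. Alternatives were edgeR 4.0.16 (quasi-likelihood test), TMM size factors, a filter of 10 counts in 3 libraries, the replicate number as a block, only the groups compared, and each library left out. The scripts were tested on 1 set of simulated counts, in which 200 genes were changed in D7 KO by 1 on the log2 scale. DESeq2 recovered 179 of them and made 28 false calls. edgeR recovered 176 and made 12 false calls. The p-values measure only the spread between these samples, which may be technical, as for the 3 ESC WT samples of 1 line. Same-numbered libraries deviated together with r over 0.1 in every pair at D3 (0.456, 0.101 and 0.272) and D7 (0.339, 0.172 and 0.392). At D5 r was 0.268, 0.0897 and 0.222, and in MEF, iPS and ESC not every pair passed 0.1. This was read from the data and not from the labels. The main fit used no pairing, and the replicate number entered only as a block in alternative fits.

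All 10 members are named, with Zfp266 as the targeted gene and genes whose exons overlap a member. From each further list at most 3 genes were named, those with the lowest FDR under 0.05. Likeness was Pearson's r of log2(normalised count + 1) in genes with a mean of at least 50, and the 5 highest were named. Members and lists were chosen with earlier results of these data known. Levels per kilobase used the merged exons of GENCODE M21 (GRCm38), which held 21417 of the gene IDs.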

Additional observations from a re-analysis of the deposited data

Results flagged for a closer look

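The KO effect differed between stages for 3 members by a test of the difference itself. Of all genes, 13% were called between D7 and D3 and 21.9% between iPS and D7. For Trp53 the effect was larger at D7 than at D3 by 0.46 on the log2 scale, from 0.078 to 0.54, and 3 of 3 KO libraries lay above every WT library at D7. From D7 to the iPSC clones it changed by -0.74, to -0.20, a KO effect in the clones that was itself not called (FDR 0.0776). There 3 of 3 KO clones lay below every WT clone, but narrowly, the highest KO clone at 8544 and the lowest WT clone at 8639. For Cdkn1a the effect changed by 1.28 from D7 to the iPSC clones, from -0.67 to 0.61, and the genotypes did not overlap at either stage. For Ccng1 it changed by 0.72, from -0.50 to 0.22, where the iPSC clones of both genotypes overlapped. The D7 libraries are sorted populations and the iPS libraries are clones, which cannot be told apart from the stage.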

How the results depend on the processing

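Over 150 pairs of a member and a comparison, 0 called values changed sign under the alternatives run. With only the groups compared, called members went from 0 to 2 at D5 (KO against WT), from 1 to 0 in iPS, from 0 to 1 in ESC, from 2 to 5 from D3 to D5 WT, from 2 to 6 from D5 to D7 WT, and from 1 to 4 for the difference of KO effects between D7 and D3. Over all genes, those fits called 15.4% at D5, 3.25% in iPS, 15.7% in ESC and 32.1% from D3 to D5 WT. They called 28.4% from D5 to D7 WT and 22.4% for the difference of KO effects between D7 and D3. The causes of the moves in called members were not tested. With TMM size factors the iPS count was 2. Leaving out 1 library gave 2 to 4 called members at D7, 1 to 4 in iPS, 1 to 2 from D5 to D7 WT, 0 to 2 between iPS and ESC WT, 7 to 8 from D7 to iPS WT, 2 to 4 for the difference of KO effects between iPS and D7, and 0 to 1 for that between iPS and ESC. The replicate block changed none of these counts by over 1.5 times (KO against WT at D7, 4 with and 4 without the replicate block). A replicate block within each stage, chosen after seeing the data, gave 1 called member (Cdkn1a, FDR 0.0376) for the difference of KO effects between iPS and ESC. Over all genes, fitting only the groups compared called 5 in place of 9 genes in MEF, 312 in place of 79 at D3, 2301 in place of 1265 at D5, 615 in place of 3436 in iPS and 29 in place of 407 between iPS and ESC WT, and for the differences of KO effects 3752 in place of 2303 between D7 and D3 and 49 in place of 242 between iPS and ESC. edgeR called 30 at D3, 809 at D5, 1086 in place of 1706 in ESC, 84 between iPS and ESC WT, and for the differences 1470 between D7 and D3, 63 between iPS and ESC and 7 in place of 24 between D3 and MEF. TMM moved the median of all genes by at most 0.049. The mean level of the members (log2, centred on each gene's mean) was 1.57 in MEF WT, 0.054 in D3 KO and -0.98 in ESC WT with a pseudocount of 1, and 1.55, 0.036 and -0.94 with 10. At D5 and at D7 each WT library correlated best with its own number in KO, a hint from the data. The r was 0.0897 to 0.268 at D5 and 0.172 to 0.392 at D7. The replicate block called 18 in place of 9 genes in MEF. Leaving out 1 library, the count over all genes went to 3 without MEF WT replicate 2 and 184 without MEF KO replicate 1 in MEF, 32 without D3 KO replicate 2, 664 without D5 KO replicate 2, 1874 without iPS KO replicate 1 in iPS, 845 without ESC KO replicate 2 in ESC, and 28 without ESC WT replicate 1 and 1862 without iPS WT replicate 3 between iPS and ESC WT. For the differences of KO effects it went to 11 without MEF WT replicate 1 and 64 without MEF KO replicate 1 between D3 and MEF, 1491 without D7 KO replicate 2 between D7 and D3, and 129 without ESC WT replicate 2 and 605 without iPS KO replicate 3 between iPS and ESC. With 3 libraries per group, the change of an uncalled member is known no better than its 95% interval in the fit used.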

Other observations

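The cyclins and kinases that the inhibitors bind were read from 8 genes, with the shares of all genes called higher and lower in brackets. Of the 8, 0 were called higher and 4 lower in iPS KO (9.72% and 6.63% of all genes), and 0 higher and 4 lower in ESC KO (5.82% and 4.29% of all genes). Ccne1, a partner of Cdk2 at entry into S phase, had 3284 ± 65.7 against 5699 ± 1125 normalised counts in iPS KO against WT and 4060.3 ± 512 against 5639 ± 85.3 in ESC KO against WT, the opposite direction to D7, where it had 1014 ± 150.0 against 554 ± 109.6. The difference of its KO effects between iPS and D7 was -1.67 ± 0.20 on the log2 scale. At D7 3 were called higher and 1 (Ccnd2) lower in KO (13.3% and 16.1% of all genes). From D7 to iPS WT, Ccnd2 had -6.47 ± 0.24 and Ccne1 3.36 ± 0.14. At D5 1 (Cdk2) was called higher in KO, and in MEFs and at D3 0 were called.

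The Bcl2 family outside the members was read from 13 genes, 12 of them tested at D3 and in ESCs. Of the 13, 2 were called higher and 3 lower in D7 KO (13.3% and 16.1% of all genes). Bcl2l11 (Bim) had 778 ± 88.7 against 393 ± 32.5 and Pmaip1 (Noxa), a p53 target, 779.5 ± 60.7 against 396 ± 90.0 in KO against WT, while Hrk had 248.7 ± 112 against 527 ± 106. In iPS KO 3 were called lower (9.72% and 6.63% of all genes), in ESC KO 1 was called higher and 1 lower (5.82% and 4.29% of all genes), and in MEFs, at D3 and at D5 0 were called. From MEF to D3 WT 5 were called higher and 7 lower (33.8% and 37.1% of all genes), Bid at 3.03 ± 0.13 and Bcl2l1 (Bcl-xL) at -2.40 ± 0.16.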
